A study of Mus musculus with 2 samples.

Results

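The window of chromosome 4 from 59 to 62 Mb (mm9), named for the major urinary protein (Mup) gene array of the mouse, held 294 of the 41561 regions in which H3K4me3 tags were listed as higher in Mll-PTD than in wild-type (WT) cells. The regions were selected on position alone, by a start inside this window. Each had entered the deposited list through the measured tags, by a peak of 500 bases that passed the caller's threshold of 30 Mll-PTD tags and a level at least 4-fold above WT, so the direction of every value below was fixed by that selection. The window was also picked with the crowding of the list known. Counts, tags and ratios of its regions are therefore given as a description, with no test between genotypes.

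Trimethylation of histone H3 at lysine 4 (H3K4me3) was mapped by sequencing of immunoprecipitated chromatin (antibody Abcam ab8580). The cells, labelled bone marrow LSK, a population of blood stem and progenitor cells, came from C57BL/6 mice and were enriched on magnetic beads for CD117 and then Sca1. The 2 libraries were 1 from WT mice and 1 from mice heterozygous for the Mll-PTD knock-in, in which a stretch of the Mll gene is duplicated in tandem on 1 allele. The sources used here do not give the number of animals per library. Neither the labelled cell type nor the place of the Mup genes could be checked, for want of mm9 gene positions here. Total tags were 58083118 for Mll-PTD and, derived from the deposited scaling, 43579244 for WT. With 1 library per genotype there was no replicate, and intervals are 95% intervals that cover counting error only.

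Major urinary proteins are small secreted lipocalins that bind and release volatile pheromones in urine. They are made mainly in the liver, under hormonal control. The family grew by tandem duplication, so that the locus is an array of closely similar genes and pseudogenes. H3K4me3 marks the start sites of active and poised genes and is highest at promoters rich in CG dinucleotides. Mll, now named Kmt2a, encodes a methyltransferase that places this mark.

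In the RefSeq gene table of GRCm38.p6, used for names and order only, 22 genes named Mup lay on chromosome 4, from Mup4, next to the solute carrier gene Slc46a2, to Mup21, next to the zinc finger gene Zfp37. Between these ends the table held 22 entries named as Mup pseudogenes and 2 other genes, Gm21286 and Gm12909. A promoter sequence, 250 bases before to 50 bases after the start, was found for 14 of the 22 genes. Those printed here, 5′ to 3′ on the gene's strand (RefSeq, GRCm38.p6), show how alike the copies are. They are the first and the last gene of the array, Mup11 from the middle of the 14 with a promoter sequence, and Mup17, the promoter most like that of Mup11. Capitals in Mup11 mark the letters TATATAA. In the other promoters capitals mark bases that differ from Mup11 or have no partner in it. Bases outside the aligned stretch stay in lower case.

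Mup4: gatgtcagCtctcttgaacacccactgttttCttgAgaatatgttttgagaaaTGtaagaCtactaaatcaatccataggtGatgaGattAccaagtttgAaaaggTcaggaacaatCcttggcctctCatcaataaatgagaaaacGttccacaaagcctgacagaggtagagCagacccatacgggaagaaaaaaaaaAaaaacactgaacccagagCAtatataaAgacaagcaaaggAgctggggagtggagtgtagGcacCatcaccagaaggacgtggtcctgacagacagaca
Mup11: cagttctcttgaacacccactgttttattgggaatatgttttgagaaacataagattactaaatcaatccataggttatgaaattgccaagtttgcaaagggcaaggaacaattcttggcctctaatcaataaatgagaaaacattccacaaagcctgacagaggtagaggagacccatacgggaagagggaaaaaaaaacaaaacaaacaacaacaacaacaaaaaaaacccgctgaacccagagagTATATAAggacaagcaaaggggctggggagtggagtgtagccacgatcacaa
Mup17: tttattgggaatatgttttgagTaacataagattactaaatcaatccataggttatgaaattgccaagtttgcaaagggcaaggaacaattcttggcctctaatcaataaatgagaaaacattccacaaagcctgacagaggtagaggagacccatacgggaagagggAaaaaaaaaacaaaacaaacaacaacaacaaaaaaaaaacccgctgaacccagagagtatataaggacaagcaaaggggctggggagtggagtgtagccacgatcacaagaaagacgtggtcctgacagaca
Mup21: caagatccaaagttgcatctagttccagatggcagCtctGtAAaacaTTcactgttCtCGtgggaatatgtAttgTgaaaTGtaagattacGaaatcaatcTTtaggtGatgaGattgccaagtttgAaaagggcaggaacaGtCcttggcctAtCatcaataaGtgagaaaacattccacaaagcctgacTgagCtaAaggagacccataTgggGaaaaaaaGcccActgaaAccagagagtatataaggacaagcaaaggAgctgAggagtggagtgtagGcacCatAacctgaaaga

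Mup17, chosen for its likeness, matched Mup11 at 275 of 278 aligned positions (98.9%). Mup4 matched Mup11 at 244 of 298 (81.9%), and Mup21 matched Mup11 at 223 of 298 (74.8%). Between the ends, Mup6 stood at 81.8% identity to Mup11 and Mup3 at 77.2%, close to the values of the end genes. All other promoters between the ends were closer to Mup11, from 94.0% (Mup18) to the 98.9% of Mup17. Over all 91 pairs of the 14 promoters the identity ran from 73.7% to 99.7%, with a median of 90.9%. The most similar pair, Mup15 and Mup19, matched at 288 of 289 positions and shared an unbroken run of 275 bases. The longest run shared by a pair had a median of 56 bases. How tags that match several copies were placed is not given in the sources used here, and the part of such tags in the values below was not tested.

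The 14 Mup promoters held 1 to 4 CG dinucleotides each (median 3) in 300 bases. The median over all 32851 promoter entries of the table was 7, and 38.0% of them held at most 4. The letters TATATAA, searched on both strands, were found in 13 of the 14 Mup promoters, all but Mup7, and in 3.24% of all entries. These promoters come from another build than the regions, so no region was assigned to a Mup gene or promoter.

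The regions were crowded into the middle of the window. The 1.5 Mb from 60 Mb on held 255 regions, 86.7% of the 294, with 18 before this stretch and 21 after it. The stretch was chosen after the counts were seen. Each of its 15 bins of 100 kb held 6 to 24 regions (median 18), while the 15 bins outside it held 0 to 5 (median 2), and 3 of those held none. The densest bins started at 60500000 with 24 regions, 60400000 with 22 and 60100000 with 21. The count rose from 1 region in the bin from 59900000 to 15 in the next, and fell from 20 in the bin from 61400000 to 5 in the next. Among all bins of chromosome 4, 52 held at least 10 regions, and 14 of these lay in the window.

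**Figure D1:**
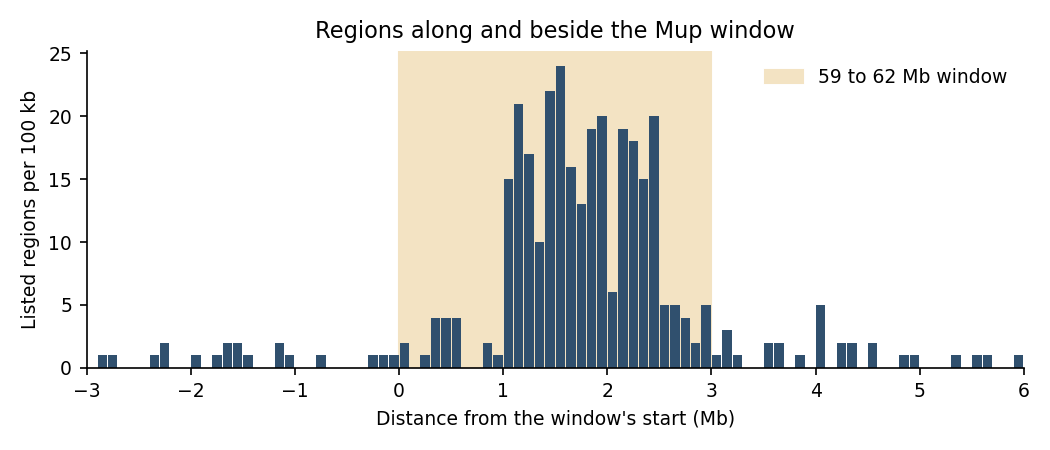
Number of listed regions in each 100-kb bin of chromosome 4, by distance from the window's start in Mb, with the 3-Mb window shaded. The 15 bins between 1 and 2.5 Mb hold 6 to 24 regions each, and the bins of the window outside that stretch hold at most 5.

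Beside the window the list was sparse. The 3 Mb before it held 19 regions and the 3 Mb after it 27. The window took 10.2% of the 2882 regions of chromosome 4 (exact Clopper-Pearson interval 9.12% to 11.4%) on 1.97% of the span between the chromosome's first and last region. This came to 98 regions per Mb against 17.3 in the rest of the chromosome, a ratio of 5.66 (5.0 to 6.39), and to 170 per Mb in the crowded stretch. Both intervals take the regions as independent, which crowded neighbours need not be, so they may be too narrow. Regions covered 7.84% of the bases of the window, 13.9% of the crowded stretch and 1.52% of the rest of chromosome 4. The last region before the window, from 58923458 to 58923958, had 21.8 scaled Mll-PTD tags and 0 WT tags. The first after it, from 62022016 to 62022516, had 47.3 and 6. Inside the edges, the first region, from 59043661 to 59044434, had 33 scaled Mll-PTD and 5 WT tags, and the last, from 61995473 to 61995973, had 33 and 3. Tags of the regions on both sides of the edges lay in the range of the window's own regions, and the edges did not fall on the borders of the crowded stretch.

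Within the window, starts of neighbouring regions lay a median of 4.15 kb apart (quartiles 2.38 and 8.41, n = 293), against 99.0 kb in the 3 Mb before the window and 75 kb in the 3 Mb after it. The shortest distance was 1005 bases, close to the minimum of 1000 bases that the caller allows between peaks. The widest stretch with no region was 224 kb, from 59049956 to 59273702, before the crowding began. Inside the crowded stretch it was 65.4 kb, from 60996356 to 61061800, in the bin with the fewest regions. Pairs of regions in the crowded stretch, counted in 40 steps of 5 kb up to 200 kb apart, numbered 164 to 270 per step with a median of 196.5. The most were 15 to 20 kb apart and the fewest 190 to 195 kb apart. The mean over the first 10 steps was 230.5 and over the last 10 it was 186, and a stretch of limited length holds fewer pairs at longer distances.

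**Figure D2:**
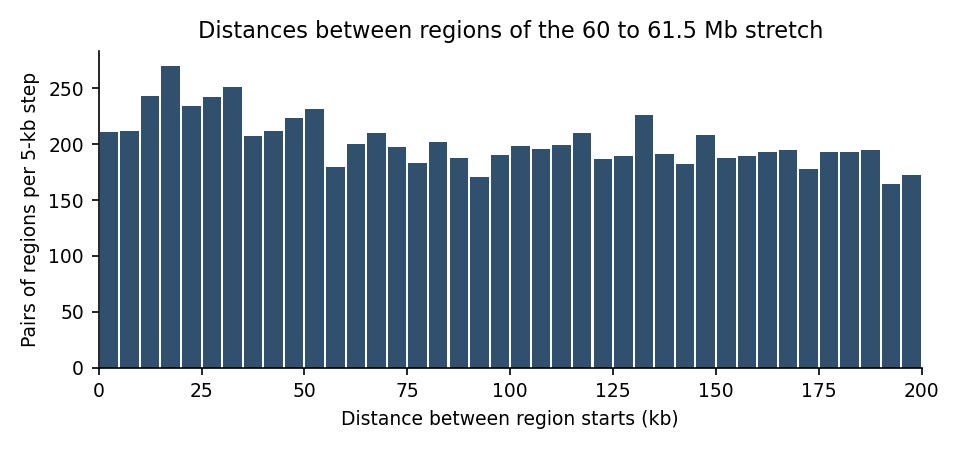
Number of pairs among the 255 regions of the crowded stretch by the distance between their starts, in 5-kb steps. The bars lie between 164 and 270 pairs. They rise to their highest at 15 to 20 kb and then decline unevenly with distance.

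Tags per region were low. Recounted Mll-PTD tags of a region could fall below the caller's 30, as in 21 regions, of which the lowest had 27. Scaled Mll-PTD tags here are those brought to the size of the WT library. Scaled Mll-PTD tags ran from 20.3 to 171.8 with a median of 33 (quartiles 24.8 and 51.8), and WT tags from 0 to 33 with a median of 5 (quartiles 2 and 7). Summed over the 294 regions there were 16137 Mll-PTD tags, 12110 after scaling, against 1501 WT tags. The ratio of these sums was 8.07 (exact interval 7.65 to 8.51), beside 7.70 over the whole list and 7.39 (7.27 to 7.51) in the rest of chromosome 4. The counting intervals of the window and of the rest of chromosome 4 did not overlap. The window held 0.707% of the listed regions, 0.601% of their Mll-PTD tags and 0.574% of their WT tags. The median region held slightly more tags than that of the list, where the medians were 29.3 scaled Mll-PTD and 4 WT tags. In the rest of chromosome 4 the medians were 30 scaled Mll-PTD tags, slightly fewer, and the same 5 WT tags. The window's regions were also longer, with a median of 639 bases against 500 in the list and in the rest of chromosome 4. Among regions of 500 bases the median was 24 scaled Mll-PTD tags in the window and 24.8 in the list and in the rest of chromosome 4. Sums over the list also count the regions of 2000 bases or more, which were rarer in the window.

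**Figure D3:**
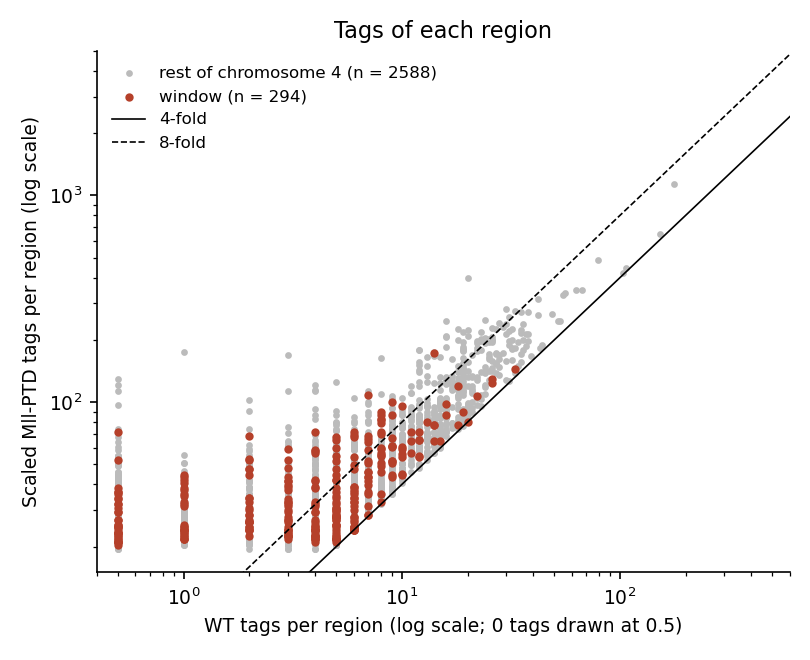
Scaled Mll-PTD tags against WT tags for each region of the window and of the rest of chromosome 4, both on log scales, with 0 WT tags drawn at 0.5 and lines at 4-fold and 8-fold. The 294 regions of the window keep to the low end, with at most 171.8 scaled Mll-PTD and 33 WT tags.

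The density of Mll-PTD tags hardly varied between regions. The median was 49.6 scaled tags per kb (quartiles 45.8 and 54.0), equal to the median of the whole list (quartiles 45.9 and 55.6). The caller's threshold of 30 tags in 500 bases corresponds to 45 scaled tags per kb, close to the lower quartile. With tags spread evenly over the caller's genome size, either library would stand at 21.8 tags per kb at the WT size. In the regions of the window WT tags stood at 6.38 per kb, 0.293 of that level, and Mll-PTD tags at 51.5 per kb, 2.36 times that level. The tag threshold and the 4-fold threshold set part of both values. Regions of the whole list also lay below and above the even level, with 7.60 WT and 58.5 scaled Mll-PTD tags per kb.

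High scores were rare in the window, as in the whole list. The caller's peak score, which the threshold of 30 tags applies to, was 30 to 39 in 252 of the 294 regions (85.7%), beside 82.3% of the whole list. It reached 60 in 6 regions, a count that was not made over the list. The highest, 94, belonged to a region from 59568851 to 59570210, outside the crowded stretch. This region also had the most tags, with 229 Mll-PTD tags (171.8 after scaling) beside 14 in WT, and its ratio was 12.3 (7.17 to 22.8). Its density of 126 scaled Mll-PTD tags per kb was the highest of the window, followed by 88.7. A second region in the same 100-kb bin, from 59529550 to 59530449, scored 61 and had 72 scaled Mll-PTD tags and no WT tag. Both scored above the 2 other regions of this bin, at 34 and 33.

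Ranked by the unscaled tags of both libraries together, an order in which WT tags also count, the next 7 regions all lay between 60 and 62 Mb, were long, and with 1 exception had lower ratios. The longest region of the window, 2996 bases from 61222906 to 61225902, had 144.8 scaled Mll-PTD tags against 33 in WT, a ratio of 4.39 (3.02 to 6.56). The region from 60581199 to 60583742 (2543 bases) had 123.8 against 26, a ratio of 4.76 (3.14 to 7.50), and that from 61142342 to 61144716 (2374 bases) 129.8 against 26, a ratio of 4.99 (3.29 to 7.86). These 3 longest regions scored 33 to 35 and lay close to the 4-fold limit of the list.

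Of the remaining 4 among the first 8 in this order, 3 had ratios from 4.88 to 6.63. The other, from 60115534 to 60117838, had 108 scaled Mll-PTD tags against 7 in WT, a ratio of 15.4 (7.30 to 39.1). It stood apart from the long regions above through its few WT tags, 3.04 per kb against 10.2 to 11 in the 3 longest. By Mll-PTD tags alone, the region from 61969965 to 61971860, with 100.5 scaled Mll-PTD tags, 9 in WT and a ratio of 11.2 (5.71 to 25), would take the place of the last of these 8, which had 98.3 and 16. Only 5 regions of the window (1.70%) reached 2000 bases, beside 5.78% of the list. None reached 3000 bases, beside 2.56% of the list and 90 of the 2588 regions of the rest of chromosome 4.

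By ratio, the window was close to the whole list and somewhat above the rest of chromosome 4. A fold of at least 8, as given in the authors' deposited table with 0.5 in place of 0 WT tags, was reached by 147 of the 294 regions (50%, exact interval 44.1% to 55.9%), beside 47% of the whole list. With 0 WT tags set to a floor of 3 the count was 134 (45.6%), beside 43.3% of the list. In the rest of chromosome 4 the shares were 42.8% (40.9% to 44.7%) and, with this floor, 39.9%. The ratio could be formed for the 260 regions that held WT tags. Its median was 7.28 (quartiles 5.55 and 12), beside 6.83 over the list (quartiles 5.11 and 10.5). In the rest of chromosome 4 the median was 6.63. Of the 260 regions of the window, 43 had a ratio under 5, 133 had one from 5 to 10 and 84 had one above 10. These classes were not counted over the list. The lowest ratio was 4, held among others by 500-base regions with 24 scaled Mll-PTD and 6 WT tags, just inside the limit of the list. On the log2 scale, with 1 added to both tag values, the median ratio was 2.73, with quartiles of 2.32 and 3.51.

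Single regions could seldom be told from the window's own ratio. For 276 of the 294 regions (93.9%) the 95% interval held the summed ratio of 8.07, for 11 it lay above and for 7 below. The 4-fold limit removes low ratios, so these counts describe the listed regions only. The same counts were not made over the whole list, so they show nothing particular to the window. Along the crowded stretch the ratio of each 100-kb bin lay between 6.26 and 10.1, and in 14 of the 15 bins the interval held the window's ratio. The exception was the bin that starts 2.2 Mb into the window, at 6.26 (5.26 to 7.48), which contains the longest region. Without that region it was 6.81 (5.59 to 8.35). Outside the stretch the bin 0.5 Mb into the window stood above the window, at 13.4 (8.75 to 21.7) on 4 regions, and without the region from 59568851 it was 15.5 (7.67 to 36.4), an interval that held the window's ratio.

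**Figure D4:**
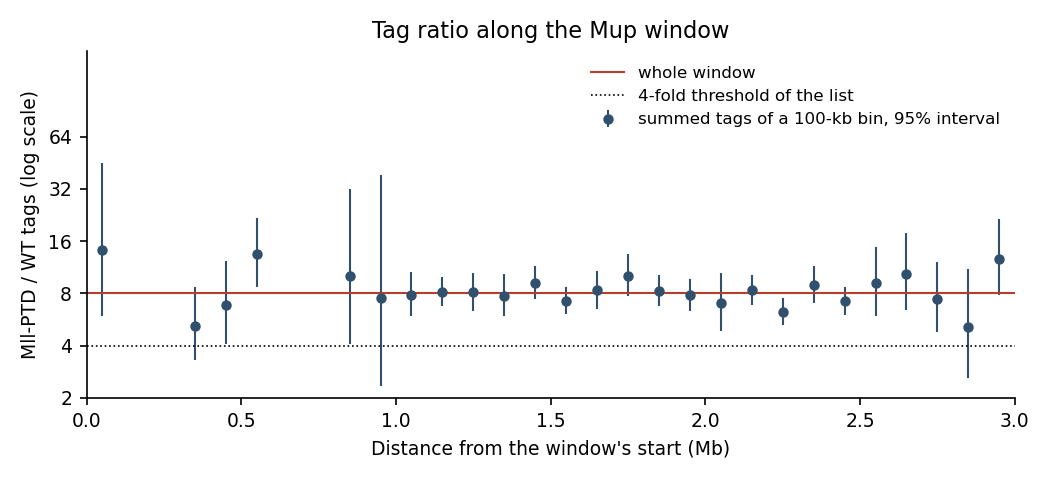
Ratio of summed scaled Mll-PTD to WT tags in each 100-kb bin that held a WT tag, on a log scale, by distance from the window's start, with exact 95% counting intervals. From 1 to 2.5 Mb the bins lie between 6.26 and 10.1, around the window's 8.07, and outside it they rest on at most 5 regions each.

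Regions inside and outside the crowded stretch differed in length, while the order of their ratios depended on the measure. Inside, the median length was 663 bases and 40.4% had the minimum of 500 bases. Outside, the median was 500 bases and 71.8% of the 39 regions had the minimum. The summed ratio was 7.91 (7.48 to 8.37) inside and 9.37 (7.98 to 11.1) outside, or 9.09 (7.68 to 10.8) outside without the region from 59568851, so the intervals overlapped. Mll-PTD tags stood at 50.8 and 56.5 scaled tags per kb and WT tags at 6.43 and 6.04 per kb.

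Lengths of the window's regions were spread differently from those of the list, with 44.6% at 500 bases beside 56.9% of the list and 22.1% over 1000 bases beside 18%. Ratios were therefore also compared within length classes. At 500 bases the summed ratio was 8.07 (7.29 to 8.95) in the 131 regions of the window and 7.36 (7.15 to 7.58) in the rest of chromosome 4. Over 500 and up to 1000 bases it was 9.22 (8.36 to 10.2) in 98 regions against 8.0 (7.73 to 8.29), and these counting intervals did not overlap. Over 1000 bases it was 7.31 (6.74 to 7.93) in 65 regions against 7.16 (7.0 to 7.32). The other autosomal regions, which include the rest of chromosome 4, stood at 7.70, 8.52 and 7.46 in these classes. The intervals of the window held all of these values. In the middle class the window thus stood apart from the rest of chromosome 4 as far as counting error goes. Its interval there held the level of all autosomal regions outside the window.

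**Figure D5:**
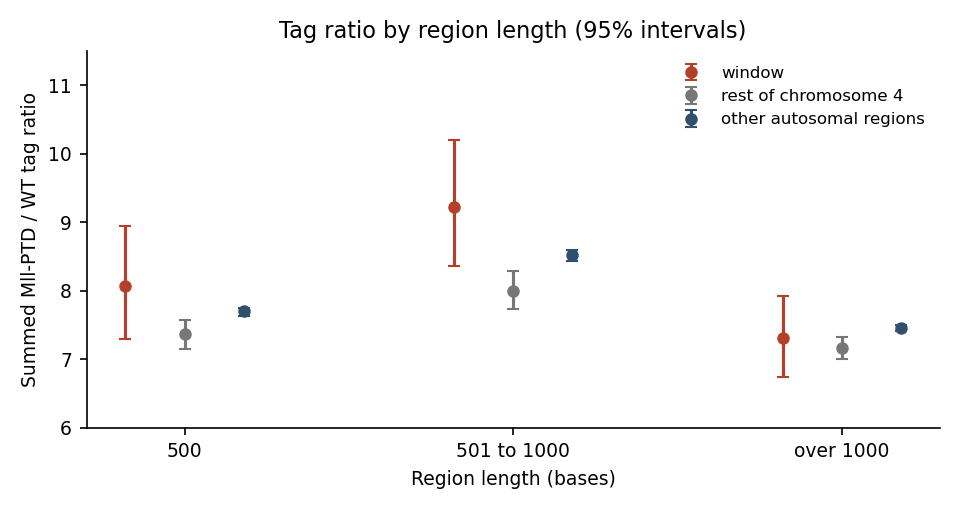
Ratio of summed scaled Mll-PTD to WT tags by region length, with exact 95% counting intervals. Shown are the window, the rest of chromosome 4 and all autosomal regions outside the window, which include the rest of chromosome 4. In the middle class the window stands at 9.22 and the rest of chromosome 4 at 8.0.

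Long regions of the window held fewer tags than long regions elsewhere. Over 1000 bases, the median region had 67.5 scaled Mll-PTD and 9 WT tags in the window and 84.0 and 11 in other autosomal regions. Mll-PTD tags stood at 51.4 and 60.3 scaled tags per kb and WT tags at 7.03 and 8.08 per kb. The median length in this class was also lower, at 1337 bases in the window and 1602 elsewhere, and its part in the tags was not tested. In regions of 500 bases the densities were closer, at 50.7 and 52.8 scaled Mll-PTD tags per kb.

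No WT tag was found in 34 of the 294 regions (11.6%, exact interval 8.14% to 15.8%), beside 13.5% of the whole list. WT tags numbered 1 in 25 regions, 2 in 24 and at least 5 in 149. The 34 regions were mostly short. Among them, 23 had 500 bases and 1 was longer than 1000 bases. Their scaled Mll-PTD tags ran from 20.3 to 72 with a median of 25.2, which against a floor of 3 WT tags gives bounds of at least 6.77-fold to at least 24-fold higher. No counting error of the Mll-PTD tags enters these bounds. The lower limits of the exact intervals, which include the counting error of both libraries, were lower, from 5.13 to 19.2, and those limits were used in the counts of intervals above. Their Mll-PTD density, a median of 46.9 scaled tags per kb, was close to the 49.6 of the 260 regions with a WT tag. Inside the crowded stretch the share was 10.2% (26 of 255, 6.77% to 14.6%) and outside it 20.5% (8 of 39, 9.30% to 36.5%). At 500 bases it was 17.6% in the window and 16.7% in other autosomal regions, and in the next class 10.2% (5.0% to 18%) and 14.7%. The regions without a WT tag were spread over 12 of the 15 bins of the crowded stretch, with at most 5 in a bin. Over the whole window, 4 of them directly followed another one.

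Ranked by log2 ratio among the 150 regions whose larger tag value was at or above the window's median, 8 of the first 10 had no WT tag. First was the region from 59529550 to 59530449, with 96 Mll-PTD tags, at least 24-fold higher against the floor and with an interval from 19.2 upward. The region from 60447389 to 60448500, the longest without a WT tag at 1111 bases, had 52.5 scaled Mll-PTD tags and was at least 17.5-fold higher. The third, from 59049456 to 59049956, had 38.3 and was at least 12.8-fold higher, and the other 5 without a WT tag were at least 11.3-fold to 12.3-fold higher. The remaining 2 were the region from 60523243 to 60524611, with 68.3 scaled Mll-PTD tags, 2 in WT and a ratio of 34.2 (9.18 to 286), and that from 61411164 to 61411999, with 44.3 against 1, a ratio of 44.3 (7.64 to 1778). The width of these intervals shows how little 1 or 2 WT tags fix a ratio.

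Tags piled on the same positions were not common in the window. The caller's clonal fold, its score for tags that share positions, had a median of 0.74 in the window and 0.73 in the list. It was above 1 in 4 of the 294 regions, beside 3.46% of the list, and its highest value was 1.07. Per the file header, the caller's limit for this score was 2, so higher values could not be listed.

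Of other windows of this size in which the list was crowded, only blocks of chromosomes 7 and 14 were measured here. Their ratios were higher or similar. The block of chromosome 7 from 21 to 24 Mb held 486 regions with a summed ratio of 9.14 (8.75 to 9.54), and that of chromosome 14 from 42 to 45 Mb held 546 with 8.67 (8.36 to 9.0). The interval of the Mup window, 7.65 to 8.51, lay below the first and overlapped the second. A fold of at least 8 was reached by 60.1% and 59.2% of their regions against 50% here. Median lengths were alike, at 629 and 636 bases against 639 in the window, as were median distances between starts, at 4.22 and 3.26 kb against 4.15 kb.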

How the data were processed

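H3K4me3 tags of 1 WT and 1 Mll-PTD library were compared through 1 deposited list of regions. Per the submitters' processing notes, the tools were HOMER 4.7 and Bowtie 0.12.7, with mm9 as the build; alignment settings are not given in the sources used here. Per the file headers, the authors called peaks of 500 bases on the Mll-PTD tags in histone style with WT as the control (false discovery rate 0.001, at least 30 tags, 4-fold over WT, Poisson p of at most 1e-04) and joined them into regions, so no region higher in WT can be listed. The deposited signal columns are Mll-PTD tags per 10000000, Mll-PTD tags scaled to WT, and WT tags, with 0.5 for 0 tags. The fold ratio, the p-value, the peak score and the clonal score are the authors' deposited values per region, and the p-value is no test between genotypes.

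Here 0.5 was read as 0 WT tags. Division by 0.7503 returned whole Mll-PTD tags within 0.1 for 100% of regions; these gave exact Clopper-Pearson intervals of ratios and shares. Tags are not independent molecules, and neighbouring regions need not be independent of each other. Bounds set 0 WT tags at 3. Named regions were the 10 with the highest log2 ratio (pseudocount 1) among those at or above the window's median tag value, the 8 with the most unscaled tags in both libraries together, the 3 longest, and the first and last; others named were chosen after their values were seen. Members, lists and measures were chosen with earlier results of these data known; the crowded stretch, the 1.5 Mb from 60 Mb on, and the similar promoter Mup17 were chosen after seeing values. Sequences are from RefSeq tables of GRCm38.p6 and were aligned locally with Biopython 1.88. Measures were checked on data drawn with known answers. Alternatives were other pseudocounts, stricter fold, p, tag or length limits, merged regions and other window edges. Versions were scipy 1.17.1, pandas 2.3.3, numpy 2.4.6, matplotlib 3.10.9 and Python 3.11.15.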

Additional observations from a re-analysis of the deposited data

How the results depend on the processing

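Of 66 values recomputed under alternatives, 48 stayed within their interval or, for counts, within 1.5 times, and none changed direction, which the 4-fold limit fixes. Restricting to the 1.5 Mb from 60 Mb on, to regions with a WT tag, and setting 0 WT tags to 3 were chosen after seeing the data. The count of 294 regions was 147 at a fold of at least 8, 176 at or above the list's median tag value and 65 at 1000 bases or more; that of 147 regions at 8-fold was 91 at or above the median tag value, 30 at 1000 bases or more and 15 with a pseudocount of 5. The median log2 ratio of 2.73 was 3.51 at a fold of at least 8 and 2.13 with a pseudocount of 5. The summed ratio of 8.07 was 15.3 at a fold of at least 8, 7.31 at 1000 bases or more and 7.41 where only regions holding a WT tag were kept. Regions without one, 11.6% of the window, made up 23.1% at a fold of at least 8, 7.39% at or above the median tag value and 1.54% at 1000 bases or more. The density ratio to the rest of chromosome 4, 5.66, was 6.62 at a fold of at least 8, 7.53 and 4.35 in a window 0.5 Mb narrower or wider on each side, and 9.78 in the 1.5 Mb from 60 Mb on. The fold limit selects on the ratio, so a higher ratio and share without a WT tag follow from its construction. The direction of 3 other kinds of shift is also fixed by construction. Stricter limits can only lower counts, and a pseudocount of 5 lowers ratios such as these. Leaving out regions without a WT tag removes Mll-PTD tags only, which lowers the summed ratio. The cause of the remaining shifts was not tested. A p-value of 1e-05 removed none, the highest being 3.45e-07. No paired analysis was possible because a single library stands for either genotype. Depth limits what a region can show, with a median of 5 WT tags.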
